A study of Homo sapiens with 10 samples.

Results

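The transcripts of 9 genes that remove RNA-DNA hybrids or keep them from forming were examined in U2OS cells after knockdown of the helicase DDX41. The genes were chosen by name for their known role, but with earlier results of these data already seen. RNASEH1, RNASEH2A, RNASEH2B and RNASEH2C encode the RNase H enzymes, and AQR and DHX9 encode helicases. TOP1 encodes a topoisomerase, and ALYREF and THOC1 encode factors that package nascent mRNA for export. All 9 were found by their Ensembl identifiers among the 63299 genes in the count tables, and all 9 were among the 16143 genes with enough counts to be tested. U2OS is a human osteosarcoma cell line. One group of 5 libraries came from cells transfected with a pool of control siRNAs (siCtrl) and the other group of 5 from cells transfected with a pool of siRNAs against DDX41 (siDDX41), both collected 48 h later. Polyadenylated RNA was sequenced from stranded libraries, with 23393764 to 24598860 counted reads per siCtrl library and 21807041 to 24896398 per siDDX41 library. Nothing in the labels says that the replicates were separate cultures, so p-values measure only the spread between these libraries, which may be technical.

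An R-loop forms when a nascent transcript pairs with its DNA template and leaves the other DNA strand unpaired. RNase H1 and RNase H2 cut the RNA strand of such hybrids, and RNase H2 also removes single ribonucleotides that DNA polymerases leave in the genome. Helicases unwind hybrids, TOP1 relieves the negative supercoiling behind RNA polymerase that lets the transcript invade the duplex, and the THO complex with ALYREF coats the transcript so that it cannot pair with the template. The question here was whether loss of DDX41, a DEAD-box helicase that unwinds RNA-DNA hybrids, went with a change in the transcripts of this machinery.

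Levels are given in CPM, the counts of a gene scaled to a common library total that includes edgeR's TMM factor. The level of DDX41 was 49.1, 49.4, 47.3, 47.2 and 50.5 CPM in siCtrl libraries 1 to 5, and 11.5, 13.7, 12.4, 11.2 and 12.3 CPM in siDDX41 libraries 1 to 5. The groups were far apart, and every library carried the DDX41 level its label called for. On average 25.1% of the control level was left. The mesenchymal markers VIM, COL1A1, SPARC, RUNX2 and FN1 were all detected, and with COL1A2 they summed to between 8605 and 9020.1 CPM per library, with SPARC the most abundant. COL1A2 was too low to be tested, at 0.448 CPM in siCtrl and 0.316 CPM in siDDX41 libraries. The 8 markers of epithelium, blood, endothelium, liver and muscle summed to between 9.37 and 11.2 CPM per library, mostly from EPCAM, and CD3E had no counts. Among the markers, SPARC was called up and VIM and RUNX2 down after the knockdown, and of the 4 markers of other cell types with enough counts to test only CDH5 was called, falling from 1.02 to 0.355 CPM. In such bulk RNA, fewer cells that express a gene and less RNA of that gene per cell cannot be told apart.

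Of the 9 genes, 4 rose and 3 fell in siDDX41 libraries. A gene was called where its p-value from edgeR's quasi-likelihood test, adjusted by the Benjamini-Hochberg method over all tested genes, was under 0.01. Much of the transcriptome differed between the groups, since 30.3% of all tested genes were called up and 32.1% down by the same test. In 6 of the 9 genes the siDDX41 libraries did not overlap the siCtrl libraries, 3 of them higher and 3 lower, and 55.9% of all tested genes showed such a separation. The changes were small. Only RNASEH2C, RNASEH1 and ALYREF had an absolute log2 fold change above 0.28, the median of all tested genes, and none of the 9 exceeded 1.

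**Figure D1:**
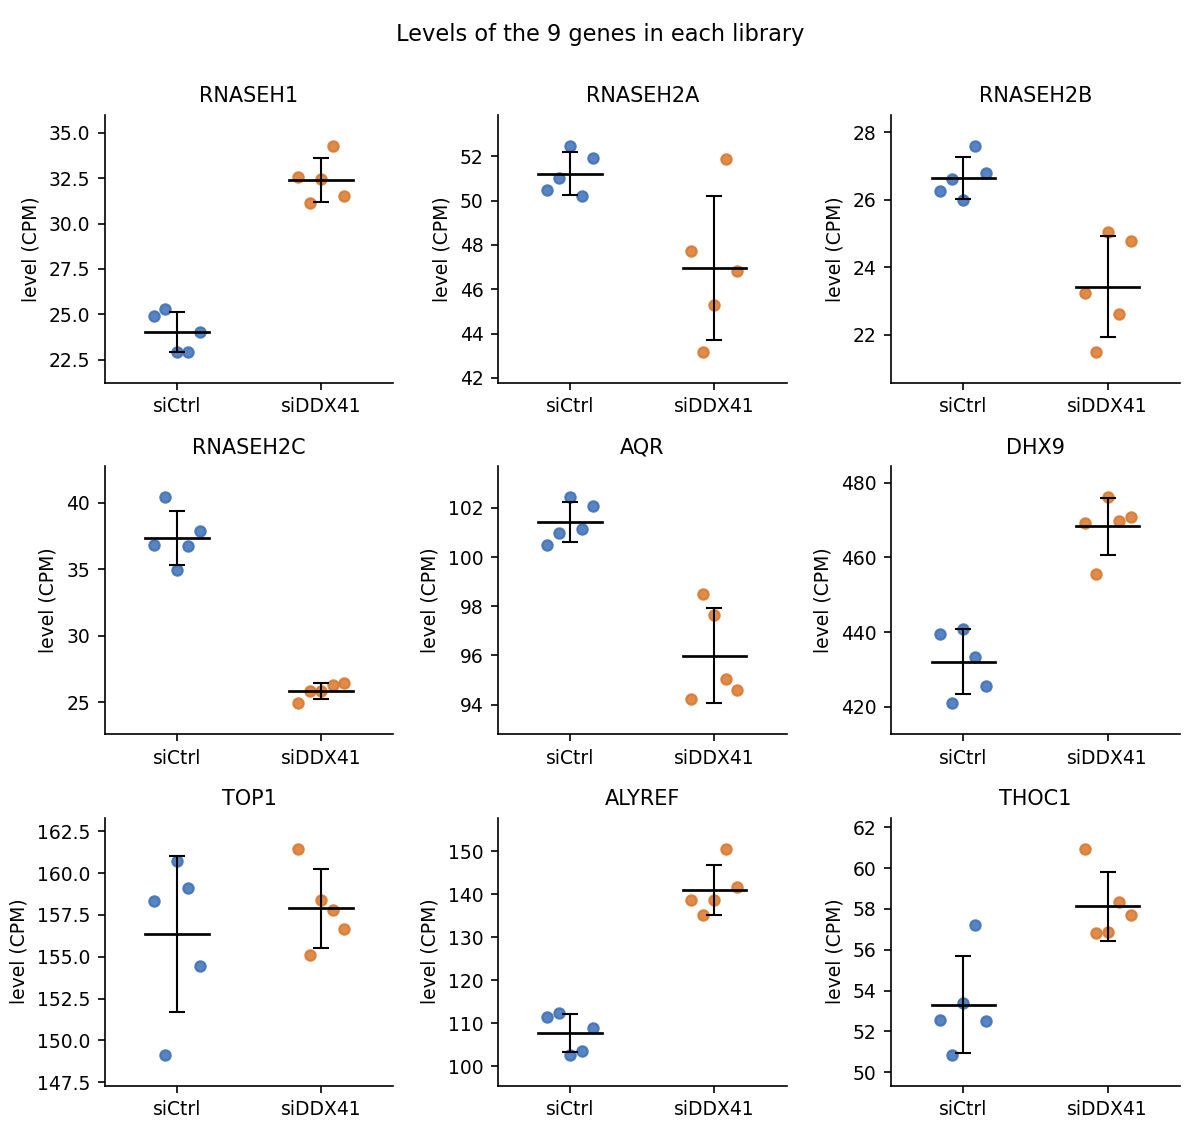
Level of each gene in CPM (vertical axes, which do not start at 0) in the 5 siCtrl (blue) and the 5 siDDX41 libraries (orange). Each point is a library, horizontal bars are means and error bars are SD. RNASEH1, DHX9 and ALYREF lie higher in every siDDX41 library, RNASEH2B, RNASEH2C and AQR lie lower, and RNASEH2A, TOP1 and THOC1 overlap.

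The RNase H genes are described first, with the DNA upstream of their starts, because the transcripts of the 3 RNase H2 subunits moved one way and that of RNASEH1 the other. RNASEH1 (ENSG00000171865.9) encodes a monomeric enzyme that acts in the nucleus and in mitochondria and lies on chromosome 2, chr2:3541430-3558333 (GRCh38, minus strand). RNase H2 is a complex of the catalytic subunit RNASEH2A (ENSG00000104889.4, chr19:12806584-12813640, plus strand) with the accessory subunits RNASEH2B (ENSG00000136104.19, chr13:50909747-51024120, plus strand) and RNASEH2C (ENSG00000172922.8, chr11:65714005-65720818, minus strand). RefSeq promoter windows (GRCh38.p14) were matched for all 9 genes. The start of the canonical transcript lies at position 3558333 for RNASEH1, 12806584 for RNASEH2A, 50909791 for RNASEH2B and 65720798 for RNASEH2C, of which the last 2 lie inside the gene bounds given. The 200 bases shown for each gene run from 250 to 51 bases before this start, 5′ to 3′ on the strand of the gene, and capitals mark runs of at least 4 G.
RNASEH1, chr2:3558384-3558583, minus strand: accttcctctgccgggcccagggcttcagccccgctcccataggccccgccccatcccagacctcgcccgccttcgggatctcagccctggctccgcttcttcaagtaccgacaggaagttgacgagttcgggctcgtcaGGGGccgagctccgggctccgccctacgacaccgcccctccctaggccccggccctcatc
RNASEH2A, chr19:12806334-12806533, plus strand: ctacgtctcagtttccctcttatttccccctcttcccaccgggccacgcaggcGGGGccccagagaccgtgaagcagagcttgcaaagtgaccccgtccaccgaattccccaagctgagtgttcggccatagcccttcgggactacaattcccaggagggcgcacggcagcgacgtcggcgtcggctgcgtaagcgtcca
RNASEH2B, chr13:50909541-50909740, plus strand: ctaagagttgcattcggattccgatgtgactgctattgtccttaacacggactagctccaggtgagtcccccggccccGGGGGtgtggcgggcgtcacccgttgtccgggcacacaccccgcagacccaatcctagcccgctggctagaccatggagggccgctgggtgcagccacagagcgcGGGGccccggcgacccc
RNASEH2C, chr11:65720849-65721048, minus strand: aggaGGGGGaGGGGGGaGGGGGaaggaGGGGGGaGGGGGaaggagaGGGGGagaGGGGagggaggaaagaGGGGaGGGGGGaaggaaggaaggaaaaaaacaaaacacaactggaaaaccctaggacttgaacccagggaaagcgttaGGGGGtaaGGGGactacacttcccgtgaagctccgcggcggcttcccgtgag

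Over the full 250 bases before the start, RNASEH2C had 11 runs of GGGG or longer on the strand shown, all of them within the 200 bases printed, and 0.707% of the windows of 27303 genes had as many. G made up 44.8% of its window, more than in 96.3% of windows. The windows of RNASEH1, RNASEH2A and RNASEH2B held 1, 2 and 2 such runs, against a median of 1 over all windows, and 68.9% of windows had at least 1. C exceeded G in these 3 windows, most in RNASEH1, where the difference of G and C divided by their sum was -0.24. In RNASEH2C the same quantity was 0.41. The motif GGGCGG, which can overlap a run of G, was searched on both strands and occurred 4 times before RNASEH1, once before RNASEH2B and not before RNASEH2A or RNASEH2C. It was present in 42.3% of all windows. CCAAT on either strand occurred once before RNASEH2A and RNASEH2B each, not before RNASEH1 or RNASEH2C, and in 33.0% of all windows. TATAAA, found in 11.1% of windows, was in none of these 4. Among the other genes, TOP1 had 6 runs of G, ALYREF, THOC1, AQR and DHX9 had 0, and ALYREF alone had a TATAAA match.

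RNASEH1 stood at 24.9, 25.3, 22.9, 22.9 and 24.0 CPM in siCtrl libraries 1 to 5, and at 32.6, 31.1, 32.4, 34.3 and 31.5 CPM in siDDX41 libraries 1 to 5. The lowest siDDX41 library was well above the highest siCtrl library. The transcript rose by 34.8%, from a mean of 24.0 ± 1.10 to 32.4 ± 1.22 CPM (SD, n = 5 each), and its log2 fold change had a standard error of 0.04 and a 95% interval of 0.34 to 0.52 (edgeR quasi-likelihood test, Benjamini-Hochberg adjusted p = 8.11e-10). A larger absolute log2 fold change was found in 33% of tested genes. The annotated start of the non-coding transcript RNASEH1-DT lies 86 bases from that of RNASEH1, on the opposite strand. RNASEH1-DT had 7.23, 6.57, 6.77, 6.55 and 6.92 CPM in siCtrl libraries and 8.14, 8.25, 9.03, 8.43 and 8.39 CPM in siDDX41 libraries. RNASEH1-DT was higher in every siDDX41 library than in any siCtrl library, with a log2 fold change of 0.31 (standard error 0.07, edgeR adjusted p = 0.000216). The processed pseudogenes RNASEH1P1 and RNASEH1P2 had 12 and 0 counts over the 10 libraries.

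RNASEH2A, the catalytic subunit, stood at 50.5, 51.0, 52.5, 50.2 and 51.9 CPM in siCtrl libraries 1 to 5, and at 47.7, 43.2, 45.3, 51.9 and 46.8 CPM in siDDX41 libraries 1 to 5. Library 4 of the siDDX41 group lay within the siCtrl range, and the other 4 lay below it. The fall was 8.31% (log2 fold change -0.13, standard error 0.04, edgeR quasi-likelihood test, Benjamini-Hochberg adjusted p = 0.00746). This call was near the threshold. It was lost with DESeq2 (log2 fold change -0.115, adjusted p = 0.0292 from its Wald test) and with DESeq2's size factors in edgeR (-0.118, adjusted p = 0.0117). It was also lost when siCtrl library 1, 3 or 5 (-0.131, -0.118 and -0.121) or siDDX41 library 1, 2, 3 or 5 (-0.128, -0.093, -0.109 and -0.122) was left out, and over all 15 alternatives the adjusted p ran from 0.00053 to 0.042.

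RNASEH2B, the subunit that binds the sliding clamp PCNA, stood at 26.3, 26.6, 26.0, 27.6 and 26.8 CPM in siCtrl libraries 1 to 5, and at 23.2, 21.5, 25, 22.6 and 24.8 CPM in siDDX41 libraries 1 to 5. The groups did not overlap, although siDDX41 libraries 3 and 5 came close to the siCtrl group. The level fell by 12.0% (log2 fold change -0.18, standard error 0.05, edgeR quasi-likelihood test, Benjamini-Hochberg adjusted p = 0.000978). Its antisense transcript RNASEH2B-AS1 had 27 counts over the 10 libraries, too few to test.

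RNASEH2C, the smallest subunit, stood at 36.8, 40.4, 34.9, 36.8 and 37.9 CPM in siCtrl libraries 1 to 5, and at 24.9, 25.8, 25.8, 26.3 and 26.4 CPM in siDDX41 libraries 1 to 5. The siDDX41 libraries lay close together and far below the siCtrl libraries. At 69.3% of the control level, RNASEH2C had the largest change of the 9 genes in either direction, with a 95% interval of the log2 fold change from -0.62 to -0.44 (edgeR quasi-likelihood test, Benjamini-Hochberg adjusted p = 5.84e-12). In 25.5% of tested genes the absolute log2 fold change was larger. The 3′ part of RNASEH2C shares 1439 exon bases with KAT5, a histone acetyltransferase gene on the opposite strand, and the strand setting of the counting is not stated in the sources used here. KAT5 stood at 65.8, 66.1, 63.3, 62.1 and 66.2 CPM in siCtrl and at 67.8, 67.9, 65.0, 69.4 and 69.3 CPM in siDDX41 libraries. KAT5 was not called (log2 fold change 0.07, edgeR adjusted p = 0.0633). When the counts of both genes were added, KAT5 contributed most of them, and the sum was lower in siDDX41 libraries (log2 fold change -0.122, edgeR adjusted p = 0.000841). The sum holds the same RNASEH2C counts, so it cannot show how reads on the shared bases were assigned. The 15 alternatives fitted to the RNASEH2C counts alone had adjusted p-values from 1.49e-29 to 4.94e-10 in edgeR or DESeq2.

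Within a library, the ratio of 2 transcripts does not depend on how libraries are scaled, so the 3 RNase H2 subunits were also compared with each other, as the log2 ratio of their counts with 0.5 added. The log2 ratio of RNASEH2A to RNASEH2C was 0.46, 0.34, 0.59, 0.45 and 0.45 in siCtrl libraries 1 to 5, and 0.94, 0.74, 0.81, 0.98 and 0.82 in siDDX41 libraries 1 to 5. That of RNASEH2B to RNASEH2C was -0.49, -0.60, -0.43, -0.41 and -0.50 in siCtrl and -0.10, -0.27, -0.05, -0.22 and -0.09 in siDDX41 libraries. Both ratios were higher in every siDDX41 library than in any siCtrl library. Their means differed by 0.40 and 0.34 (two-sided exact permutation test over the 10 libraries, p = 0.00794 for each, the smallest that 5 against 5 allow, and adjusted p = 0.0119 over the 3 ratios by Benjamini-Hochberg). This adjusted p is above the 0.01 used to call genes. The ratio of RNASEH2A to RNASEH2B had means of 0.94 ± 0.05 and 1.00 ± 0.13 (SD, n = 5 each, two-sided exact permutation test, p = 0.437, adjusted p = 0.437), and its groups overlapped.

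Set against RNASEH1, all 3 subunits shifted, and these ratios are given as a description because they were chosen after the values were seen. The log2 ratio of RNASEH1 to RNASEH2C lay between -0.68 and -0.56 in siCtrl and between 0.25 and 0.39 in siDDX41 libraries, a difference of 0.96 between the means. Counts of RNASEH1 were thus below those of RNASEH2C in every siCtrl library and above them in every siDDX41 library. The ratio to RNASEH2B moved from a mean of -0.15 to 0.47, and the ratio to RNASEH2A from -1.09 to -0.53, so that RNASEH2A kept more counts than RNASEH1 in every library.

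**Figure D2:**
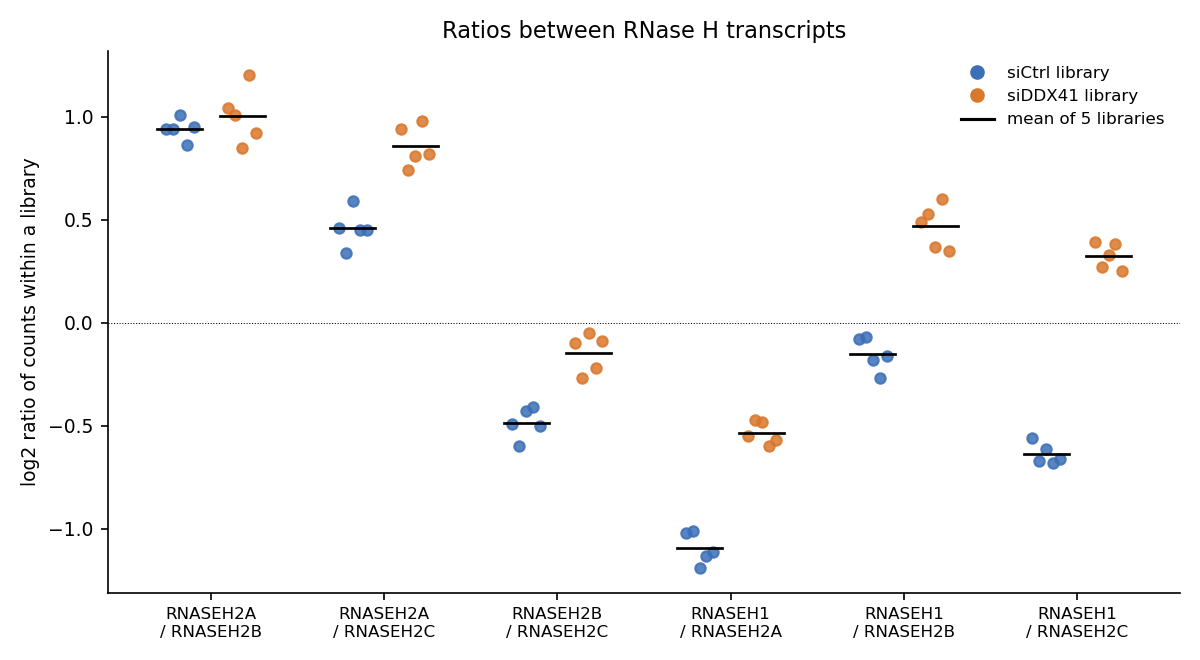
Log2 ratio of the counts of 2 RNase H transcripts (vertical axis) for 6 pairs (horizontal axis), with a point for each siCtrl (blue) and siDDX41 library (orange) and bars at the means. The groups overlap for RNASEH2A to RNASEH2B and are separate for the other 5 pairs, with the widest shift, 0.96, for RNASEH1 to RNASEH2C.

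The helicase genes moved less than RNASEH1 and RNASEH2C. AQR (ENSG00000021776.10, chr15:34851782-34969742, minus strand) encodes Aquarius, a helicase of the spliceosome that also limits R-loops, and stood at 101, 101, 102, 101 and 102 CPM in siCtrl libraries 1 to 5 and at 94.2, 98.5, 97.6, 95 and 94.6 CPM in siDDX41 libraries 1 to 5. The siCtrl libraries were nearly equal and all above the siDDX41 libraries. The log2 fold change was -0.08 (95% interval -0.14 to -0.02) and missed the threshold (edgeR quasi-likelihood test, Benjamini-Hochberg adjusted p = 0.0144). It passed when libraries were scaled by total counts alone (-0.091, adjusted p = 0.00542, against a range of 0.00542 to 0.0638 over the 15 alternatives).

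DHX9 (ENSG00000135829.16, chr1:182839347-182887982, plus strand) encodes RNA helicase A, which unwinds RNA-DNA hybrids and structured RNA. It stood at 439.6, 421, 441, 433 and 426 CPM in siCtrl libraries 1 to 5 and at 469, 456, 476, 469.7 and 471 CPM in siDDX41 libraries 1 to 5. The groups did not overlap. The transcript rose by 8.39% (log2 fold change 0.12, standard error 0.02, edgeR quasi-likelihood test, Benjamini-Hochberg adjusted p = 0.000143). Its processed pseudogene DHX9P1 had 14 counts over the 10 libraries.

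TOP1 (ENSG00000198900.5, chr20:41028822-41124487, plus strand) stood at 158, 149, 161, 159 and 154 CPM in siCtrl libraries 1 to 5 and at 161, 155, 158, 158 and 157 CPM in siDDX41 libraries 1 to 5. The ranges overlapped almost wholly. The interval of its log2 fold change, -0.04 to 0.07, was narrow and held 0 (edgeR quasi-likelihood test, Benjamini-Hochberg adjusted p = 0.659), and 97.2% of tested genes had a larger absolute log2 fold change. Without siCtrl library 2, its lowest library, the log2 fold change was -0.003. Its promoter window was the most G-rich of the 9 after that of RNASEH2C, with 40.8% G.

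ALYREF (ENSG00000183684.7, chr17:81887835-81891586, minus strand) encodes the adaptor that joins the spliced transcript to the export receptor. It stood at 111, 112, 103, 103 and 109 CPM in siCtrl libraries 1 to 5, and at 139, 135, 139, 151 and 142 CPM in siDDX41 libraries 1 to 5. Every siDDX41 library was well above every siCtrl library. The level rose by 30.9%, with a 95% interval of the log2 fold change from 0.32 to 0.46 (edgeR quasi-likelihood test, Benjamini-Hochberg adjusted p = 1.38e-11). ANAPC11, a subunit gene of the anaphase-promoting complex that starts 796 bases from the ALYREF start on the opposite strand and shares 62 exon bases with it, stood at 64.6 ± 4.64 CPM in siCtrl and 63.8 ± 1.09 CPM in siDDX41 libraries (SD, n = 5 each). ANAPC11 was not called (log2 fold change -0.02, 95% interval -0.10 to 0.06, edgeR adjusted p = 0.69).

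THOC1 (ENSG00000079134.11, chr18:214520-268050, minus strand) encodes a core subunit of the THO complex. It stood at 52.6, 50.9, 53.4, 57.2 and 52.5 CPM in siCtrl libraries 1 to 5 and at 61.0, 56.8, 56.9, 58.3 and 57.7 CPM in siDDX41 libraries 1 to 5. Library 4 of the siCtrl group lay above the lowest siDDX41 libraries, and the others were lower. THOC1 rose by 9.04% (log2 fold change 0.12, standard error 0.04, edgeR quasi-likelihood test, Benjamini-Hochberg adjusted p = 0.00317), but the call was lost without siCtrl library 2 (0.108, adjusted p = 0.012) or without siDDX41 library 1 (0.110, adjusted p = 0.0122), with adjusted p-values from 0.000726 to 0.0122 over the 15 alternatives. Its last exon bases are shared with USP14 on the opposite strand over 110 bases. USP14, a deubiquitinase gene with 310% of the THOC1 counts, also rose (log2 fold change 0.19, edgeR adjusted p = 3.73e-06), and its part in the THOC1 value was not tested. The divergent transcript THOC1-DT had 72 counts over the 10 libraries and was not tested.

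**Figure D3:**
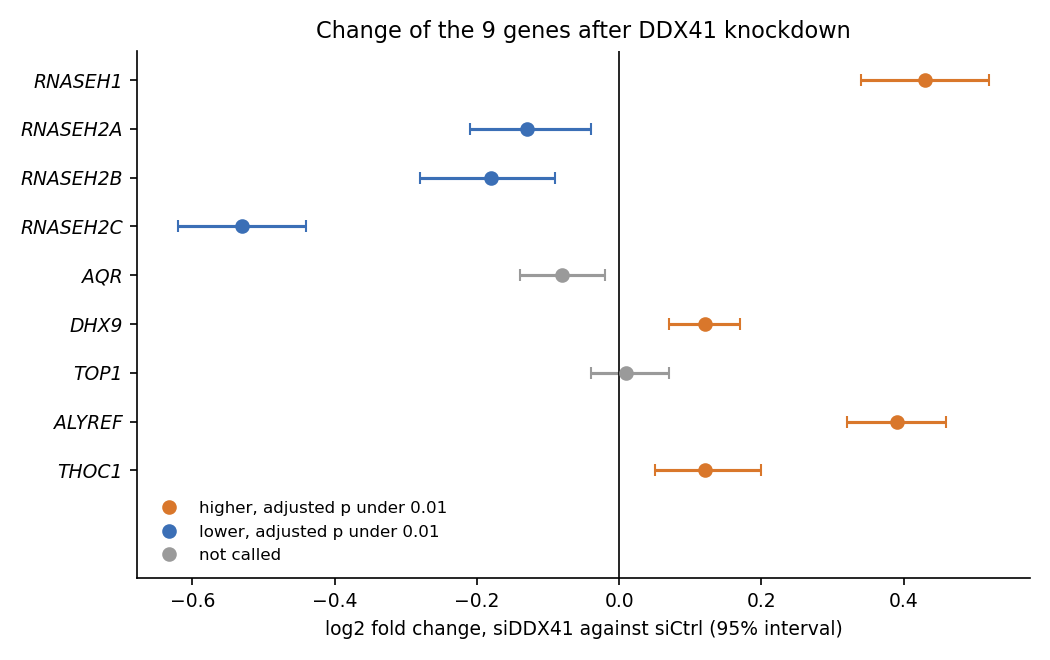
Log2 fold change of siDDX41 against siCtrl libraries (horizontal axis) with its 95% interval for each gene, from 5 libraries per group. Orange marks genes called higher, blue genes called lower and grey genes not called at an adjusted p under 0.01. The values run from -0.53 for RNASEH2C to 0.43 for RNASEH1.

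Levels of different genes were compared as CPM per kb of the canonical transcript. On this scale ALYREF (98.2 ± 4.06, SD, n = 5) and DHX9 (96.2 ± 1.94) were the most abundant in siCtrl libraries, and their ranges overlapped. RNASEH2A (44 ± 0.818), TOP1 (41.9 ± 1.24), THOC1 (25.3 ± 1.12), RNASEH2B (17.6 ± 0.406), RNASEH2C (14.1 ± 0.762), AQR (10.6 ± 0.0831) and RNASEH1 (4.54 ± 0.208) followed, each with a range apart from the next. The subunits of RNase H2 were thus not at equal levels per kb of canonical transcript, and on this scale RNASEH1 was below each of them. In siDDX41 libraries, RNASEH1 was still the lowest at 6.12 CPM per kb, RNASEH2C at 9.78 and AQR at 10.0 overlapped, as did RNASEH2A at 40.4 and TOP1 at 42.3, and ALYREF at 128 was apart from DHX9 at 104. Dividing by the length of all annotated exons of a gene, an alternative chosen after seeing the data, changed the order. RNASEH2B, whose joined exons span 26222 bases against 1513 in the canonical transcript, then came last. It stood at 1.02 CPM per kb in siCtrl libraries, below RNASEH1 at 4.04.

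**Figure D4:**
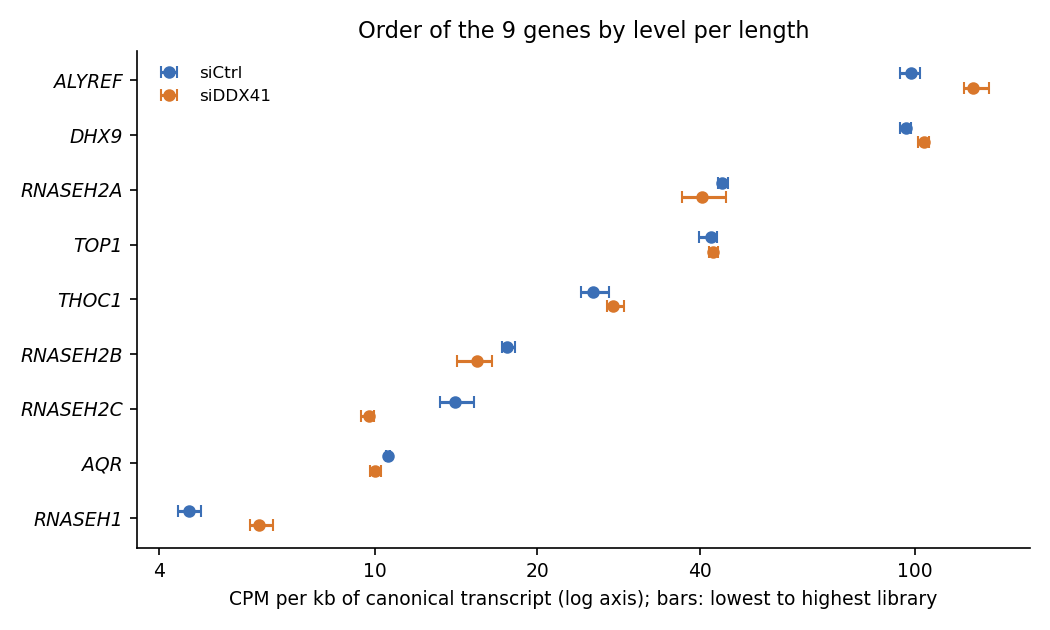
Level of the 9 genes in CPM per kb of canonical transcript (horizontal log axis), as means of 5 siCtrl (blue) and 5 siDDX41 libraries (orange), with bars from the lowest to the highest library. ALYREF and DHX9 lie highest, near 98.2 and 96.2 in siCtrl libraries, and RNASEH1 lies lowest at 4.54.

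Other genes of the same pathways were described by lists. Each count of called genes stands beside the 30.3% of all tested genes that were called up and the 32.1% called down, and for all tested genes the median log2 fold change was -0.001. The RNase H list itself had 1 gene up and 3 down. Of 17 tested THO and mRNA export genes, 7 rose and 4 fell, with a median log2 fold change of 0.08. Among those that rose, the smallest adjusted p-value was that of THOC5 (113 to 159.6 CPM, log2 fold change 0.50), a THO subunit like THOC1. The THO subunit THOC7 (-0.30) and POLDIP3 (-0.13), a cofactor of export, fell. Of the other THO subunits, THOC6 also fell (67.1 to 60.5 CPM, -0.15), and THOC2 (-0.05) and THOC3 (0.08) were not called. DDX39B, the helicase of this complex, had no counts in any library. Whether its reads were assigned to another gene model was not tested.

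Of 17 tested RNA-DNA helicase genes, AQR and DHX9 included, 6 rose and 6 fell (median log2 fold change -0.03). DDX21 (287 to 360.5 CPM, log2 fold change 0.33) and DDX1 (245 to 292 CPM, 0.25) rose. PIF1, a helicase of G-quadruplex DNA, had the largest change of the list and fell from 52.7 to 30.3 CPM (-0.80), and DDX17 fell from 429.8 to 329 CPM (-0.39). RTEL1 was too low to be tested, at 0.317 and 0.335 CPM in siCtrl and siDDX41 libraries. In the intron-binding complex through which AQR joins the spliceosome, 1 of 5 genes rose, PPIE (0.22), and 1 fell, ISY1 (-0.20), with a median of -0.04. The call of ISY1 was lost with DESeq2 (-0.191, adjusted p = 0.0127), without siCtrl library 1 (-0.176, edgeR adjusted p = 0.0123) and without siDDX41 library 2 (-0.177, edgeR adjusted p = 0.011), with adjusted p-values from 0.00124 to 0.0127 over 15 alternatives. Of 10 SR protein genes, whose products bind nascent RNA, 1 rose and 5 fell (median -0.08), among them SRSF6 (229 to 166 CPM, -0.46) and SRSF4 (-0.26), while SRSF9 rose (0.17).

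While TOP1 was not called, 4 of the 11 topoisomerase and partner genes rose and 4 fell (median log2 fold change -0.05). TOP2A, which decatenates sister chromatids and peaks in dividing cells, fell from 1177 to 706 CPM (-0.74), and the mitochondrial enzyme gene TOP1MT fell from 67.1 to 52.7 CPM (-0.35). TDRD3 (0.37), the scaffold of the RNA topoisomerase TOP3B, and TOP2B (0.17) rose. Among 18 genes of transcription termination and nuclear RNA decay, 10 rose and 3 fell, with a median of 0.12. CSTF2 (64.8 to 81.4 CPM, 0.33) and the exosome subunit gene EXOSC7 (25.5 to 32.9 CPM, 0.37) rose, and PCF11 (-0.30) and EXOSC6 (-0.29) fell.

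Ribonucleotide excision repair is completed by other genes after RNase H2 has cut. Of 15 tested, 9 fell and 2 rose, with a median log2 fold change of -0.17, where 32.1% of all tested genes fell and 30.3% rose. Their summed level was 1850.2, 1838, 1767, 1791 and 1817 CPM in siCtrl libraries 1 to 5 and 1658, 1605, 1681, 1704 and 1664 CPM in siDDX41 libraries 1 to 5, with PCNA the most abundant. The sums did not overlap between the groups. LIG1 (152 to 120.5 CPM, -0.33), the ligase that seals the nick, and the exonuclease gene EXO1 (63.2 to 48.3 CPM, -0.39) had the smallest adjusted p-values among those that fell. POLD2 (0.21) and RFC1 (0.11) rose. Many of these genes also serve DNA replication, and no share of cells in S phase is given for these libraries.

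Of 16 genes for nucleases that process R-loops and for fork protection, 4 rose and 7 fell (median log2 fold change -0.11). The nuclease gene ERCC4, which encodes XPF, rose from 31.6 to 47.5 CPM (0.59), and XPA from 9.56 to 14.1 CPM (0.56). FANCI (243 to 188 CPM, -0.37) and SLX4 (43.1 to 32.8 CPM, -0.39) fell. The RNase H2 subunit genes are also known as genes of Aicardi-Goutieres syndrome, an inherited interferonopathy. Of 7 tested genes of this syndrome the same 3 subunits fell and 2 rose, LSM11 (14.6 to 24.5 CPM, 0.74) and SAMHD1 (0.14), with a median of 0.03. SAMHD1 was not called without siCtrl library 3 (0.117, edgeR adjusted p = 0.0181), siCtrl library 5 (0.127, edgeR adjusted p = 0.0174) or siDDX41 library 4 (0.109, edgeR adjusted p = 0.0251), with adjusted p-values from 0.000665 to 0.0251 over 15 alternatives. TREX1 had no counts in any library, and whether its reads were assigned to another gene model was not tested.

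**Figure D5:**
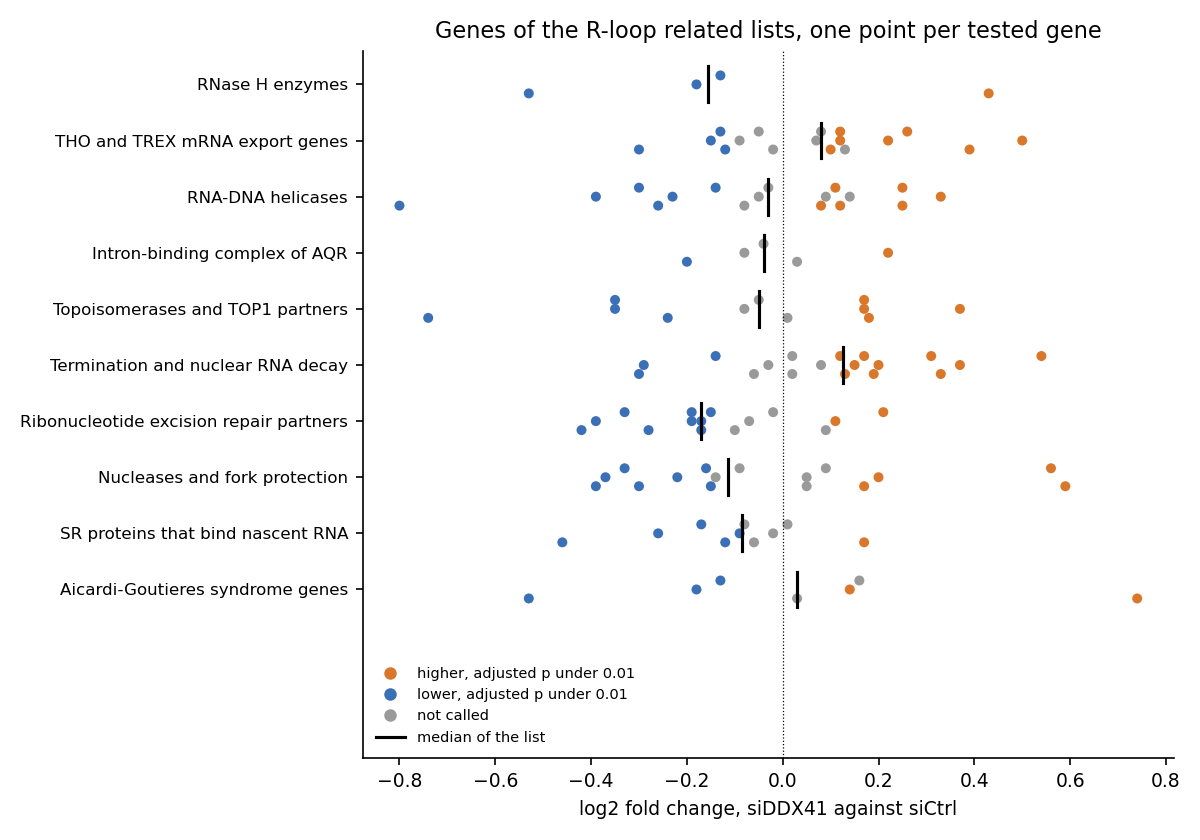
Log2 fold change of siDDX41 against siCtrl libraries (horizontal axis) for the tested genes of each list, with a point per gene and a bar at the list's median. Orange marks genes called higher, blue genes called lower and grey genes not called. Medians run from -0.17 for ribonucleotide excision repair partners to 0.12 for termination and nuclear RNA decay.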

How the data were processed

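Read counts per gene were made and deposited by the authors, who mapped reads of 84 bases to hg38 with STAR and counted them on Gencode release 25 with featureCounts. The submitters' processing notes name STAR 2.7 and featureCounts 1.6. How featureCounts treated strand and multi-mapped reads is not given in the sources used here. Genes of at least 200 exon bases that lie wholly inside exons of an opposite-strand gene, and share no exon on their own strand, had at least 1 count over the 10 libraries in 243 of 326 cases and at least 100 counts in 13, where each opposite-strand gene had at least 1000, judged with exons of release 44.

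The tests were run with edgeR 4.0.16 in R 4.3.3 (filterByExpr, TMM, robust glmQLFit, glmQLFTest, Benjamini-Hochberg), at an adjusted p-value under 0.01, after tests on simulated data. In a simulation with 200 genes changed 1.5-fold, edgeR called 186 of them and 7 unchanged genes. With the replicate block it called 186 and 11, and DESeq2 called 182 and 7. DESeq2 1.42.0 was an alternative. Others changed the scaling, the filter, the threshold, the pseudocount and the libraries, used the replicate number as a block, or added RNASEH2C and KAT5 counts. Python 3.11.15, scipy 1.17.1 and pandas 2.3.3 were used for ratios and exact permutation tests. Names, positions and lengths came from GENCODE 44 on GRCh38, the same build, and promoter windows from RefSeq.

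The members and lists were chosen with earlier results of these data known. The genes named besides the members were DDX41, genes that share exon bases with a member and have at least 10% of its counts, transcripts and pseudogenes named after a member, the 2 genes called up and 2 called down with the smallest adjusted p per list, untested genes of a list, and the gene with the most similar pattern to each member. THOC2, THOC3 and THOC6, the promoter windows, the distances between starts and the ratios to RNASEH1 were chosen after values were seen. A pseudogene on the Y chromosome is not reported. Total counts of 21807041 to 24896398 per library limit the precision for genes at low levels.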

Additional observations from a re-analysis of the deposited data

How the results depend on the processing

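Directions and calls of RNASEH1, RNASEH2B, RNASEH2C, DHX9 and ALYREF were the same under all 15 alternatives fitted to their own counts. A further fit used the RNASEH2C counts summed with those of KAT5. That sum was called down, with a log2 fold change of -0.122, but it holds the same RNASEH2C counts and is no separate support. The log2 fold change of RNASEH2C itself ran from -0.554 to -0.5 with each library left out. RNASEH2A lost its call in 9 of 15, with -0.115 in DESeq2 and -0.118 in edgeR scaled by DESeq2's size factors, and log2 fold changes from -0.163 to -0.093 with each library left out. AQR gained a call with scaling by total counts (-0.091). THOC1 ran from 0.108 to 0.15 and TOP1 from -0.003 to 0.024 with each library left out. The count of members called up was 3 to 4 and down 2 to 4. Genes of the intron-binding complex called down, 1 of 5 in the report, numbered 0 with DESeq2, 2 with total counts, 2 at an adjusted p under 0.05 and 0 to 1 with each library left out, and Aicardi-Goutieres genes called up numbered 1 to 2 with each library left out. The causes were not tested. Same-numbered libraries correlated between -0.0524 and 0.0446 in their deviations from the group means, so the numbers only name the libraries. A fit with the replicate block called 4790 genes up and 5097 down and changed no member's call. Paired by number, the ratios to RNASEH2C differed by 0.401 for RNASEH2A and 0.341 for RNASEH2B (exact sign-flip permutation, p = 0.0625 for both), the smallest p that 5 pairs allow, which says nothing of stability. Depth limits the genes near the filter, and the members have at least 495 counts in each library.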

Other observations

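For each of the 9 genes, the tested gene with the most similar pattern was sought among genes with a mean of at least 5 CPM, as a description, by Pearson's r of log2 CPM over the 10 libraries. Both groups enter this r, so that it holds the difference between the groups, and the highest of many values is high by selection. RNASEH1 was most like KIF17, a kinesin gene (3.01 to 7.10 CPM, r = 0.996), and RNASEH2C was most like EEF1A2, a translation elongation factor gene (313 to 169 CPM, r = 0.998). ALYREF was most like RNASEH1 itself (r = 0.995), although they lie on chromosomes 17 and 2. For the genes that changed less, r was lower, at 0.921 for RNASEH2A with PLD1, 0.951 for RNASEH2B with TUBA4A, 0.960 for THOC1 with MTND2P28, a nuclear pseudogene copy of a mitochondrial gene, 0.980 for DHX9 with KCTD9 and 0.912 for TOP1 with C9orf72. AQR was most like PCBP1-AS1, an antisense transcript, with r = 0.982. With the group means removed, r for these pairs ran from 0.84 for RNASEH2B to 0.96 for RNASEH2C. The pairs were chosen on the same libraries, so these values are also high by selection.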
